A study of Homo sapiens with 3 samples.

Results

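The eIF4 group initiation factors were examined as 9 listed genes, EIF4A1, EIF4A2, EIF4A3, EIF4B, EIF4E, EIF4G1, EIF4G2, EIF4G3 and EIF4H, out of 3740 genes that carried a ribosome peak in these data. HEK293T, a line from human embryonic kidney whose labels also give the cell type as "Neuronal", was used for ribosome profiling, in which the mRNA fragments that ribosomes shield from digestion are sequenced. Cells were transiently transfected for 24 h with empty pCDNA3.1 vector (vector), with FLAG-tagged WT DDX3X (WT) or with FLAG-tagged DDX3X G325E (G325E), a substitution of this RNA helicase found in medulloblastoma. The cells keep their own DDX3X, so each construct was added to it. Per the labels all 3 cultures were given 2 µg/ml harringtonine, an inhibitor that traps ribosomes as they initiate, for 90 s and then 100 µg/ml cycloheximide, which stops elongation, whereas the study's methods name cycloheximide alone. There was 1 library for each construct, so the variation among cultures is unknown and no test was run.

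The data were lists of ribosome peaks on hg19 (GRCh37), stretches where read coverage passed a fixed limit, with no height or read count. The number of peaks on a gene was therefore read as a share of its list. Depth is not in the lists, but the study's supplement tabulates reads per library, and G325E has the fewest mapped reads after removal of duplicates and WT the most. A fixed coverage limit can be reached at fewer places in a shallower library. The G325E list nevertheless holds more peaks than the vector list, 15680 against 11219. What depth adds to the comparisons below, above all to a gene at 0 in G325E, was not tested. The lists held 11219 to 19920 peaks with median lengths of 29 to 30 bases. The authors' peak numbers skip 14.8% of entries in the vector list and 13.5% in the WT list but 0 in the G325E list, and what the skipped entries held is not analysed here. Peaks on DDX3X itself numbered 0 in vector, 32 in WT and 9 in G325E. Median GC content of the 31 bases around a peak was 64.5% in vector, 61.3% in WT and 74.2% in G325E, and this difference stands beside every comparison below.

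The eIF4 factors bring the ribosome to mRNA. eIF4E binds the 5′ cap, the large scaffold eIF4G joins it to the RNA helicase eIF4A and to the small ribosomal subunit, and eIF4B and eIF4H stimulate the helicase as leader structure is unwound during scanning. EIF4A1 and EIF4A2 encode the initiation helicase, while EIF4A3 encodes a close relative that sits in the exon junction complex on spliced mRNA. EIF4G1 and EIF4G3 encode the scaffold of cap-dependent initiation, and EIF4G2 encodes a shorter relative without the eIF4E-binding part, translated from a GTG start codon in the annotation used here. DDX3X is a DEAD-box helicase of the same superfamily as eIF4A.

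The sequences under peaks show what was and was not seen in G325E. The first 4 are the middle 30 bases of the longest coding peak that WT gave on a gene and over which G325E had no peak, read in the direction of the gene from GRCh37, with G and C in capitals. They lie in exon 8 of EIF4A1 (chr17:7480946-7480975, plus strand, from codon 276), exon 10 of EIF4B (chr12:53428437-53428466, plus strand, from codon 417), exon 15 of EIF4G1 (chr3:184041311-184041340, plus strand, from codon 735) and exon 16 of EIF4G2 (chr11:10822303-10822332, minus strand, from codon 530).
EIF4A1: CatCttCatCaaCaCCCGGaGGaaGGtGGa
EIF4B: GGtCGaGGaCaGGaaGtGaGtCatCaCaaa
EIF4G1: aaCCCaGCaGCaaGCGGaCGGCGGCtGata
EIF4G2: tGCCaaGaCCaGCaaaaaGCCaCCaCCGtC
G and C made up 16, 15, 19 and 17 of the 30 bases, in that order.

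The next 3 are the middle 30 bases of the longest coding peak in G325E, where a coding peak has its midpoint in coding sequence. They lie in exon 1 of EIF4A3 (chr17:78120608-78120637, minus strand, from codon 42), exon 4 of EIF4G2 (chr11:10827522-10827551, minus strand, from codon 51) and exon 6 of EIF4H (chr7:73609109-73609138, plus strand, from codon 170).
EIF4A3: aCCatGGGCCtGCGGGaGGaCCtGCtGCGG
EIF4G2: attCCtGCaCGaaGCaCtaGaCGaGatGaC
EIF4H: CGCCCaGGCGaCCGGCGaaCaGGCCCCCCC
These held 22, 15 and 25 G or C of 30, so that the EIF4A3 and EIF4H stretches were richer in G and C than the 4 above and the EIF4G2 stretch was not. WT stretches chosen as the first 4 were, but not printed, held 17 of 30 on EIF4A3, 18 on EIF4H and 12 on EIF4A2.

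Peaks were first counted by the gene of the transcript that HOMER, the annotation program, gave for each peak. By this count the 9 genes held 57 peaks in vector, 63 in WT and 22 in G325E. Scaled to 10000 peaks of the list, that was 50.8 in vector (95% Wilson interval 39.2 to 65.8), 31.6 in WT (24.7 to 40.4) and 14.03 in G325E (9.27 to 21.2). The share in G325E was 0.444 of that in WT (95% exact binomial interval 0.260 to 0.731) and 0.276 of that in vector (0.161 to 0.459), and the share in WT was 0.623 of that in vector (0.428 to 0.907). These intervals, like all that follow, cover counting error only. Without EIF4G1, which had the most peaks by this count, the ratio of G325E to WT was 0.65 (0.370 to 1.11), an interval that includes 1, and that of G325E to vector was 0.404 (0.228 to 0.698). Scaled to the list total, G325E thus had the lowest share of peaks on the eIF4 genes and vector the highest. The order of WT and vector depends on that scaling. With lists scaled by the median per-gene ratio, WT stood at 0.947 of vector (0.65 to 1.38), an interval that includes 1. From these lists of a bulk culture, fewer cells with a transcript, less mRNA per cell and fewer ribosomes per mRNA cannot be told apart. In separate RNA-seq of HEK293T cells, the study reports no significant effect of WT or mutant DDX3X on mRNA levels. Those data were not examined here.

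HOMER's labels hid part of these genes. By location, a peak went to the gene of the canonical GENCODE exon under its midpoint. A peak with no such exon under its midpoint, as in an intron or before the transcription start, kept its HOMER gene. Of the 205 member peaks by this count, 63 were labelled to another gene (27 in vector, 36 in WT and 0 in G325E). Of the 63, 56 were labelled to small nucleolar RNA genes that lie in introns of EIF4A1, EIF4A2 and EIF4G2. Of the 63 peaks, 0 touched a small nucleolar RNA. Counting by location, a choice made after these labels were seen, gave 84 peaks in vector, 99 in WT and 22 in G325E, or 74.9, 49.7 and 14.03 per 10000. The midpoint lay on a canonical exon of a member for 70 of the 84, 84 of the 99 and 10 of the 22. The rest counted through HOMER's gene. The share in G325E was then 0.282 of that in WT (0.169 to 0.452) and 0.187 of that in vector (0.111 to 0.303), and it was 0.388 of WT (0.229 to 0.633) without EIF4A1 and 0.354 (0.210 to 0.573) without EIF4G1. Both counts were the same for EIF4A3, EIF4B, EIF4E, EIF4G1, EIF4G3 and EIF4H.

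**Figure D1:**
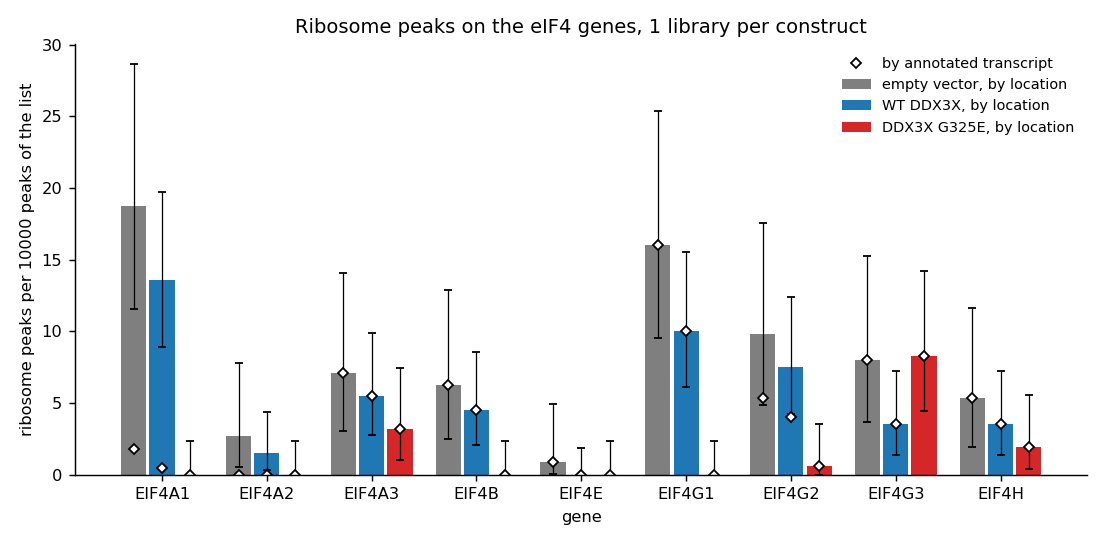
Ribosome peaks per 10000 peaks of the list (vertical axis) on each eIF4 gene (horizontal axis) in the 3 lists, 1 library each. Bars count peaks by location with exact 95% Poisson intervals, and open diamonds count them by the annotated transcript. The G325E bar is at 0 for EIF4A1, EIF4A2, EIF4B, EIF4E and EIF4G1, while for EIF4G3 it stands at 8.29, next to 8.02 in vector.

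A gene was called when its scaled peak number differed at least 2-fold between lists, with a list at 0 set to 3 peaks, and only genes with over 3 peaks in at least 1 of the lists could be called. By the annotated transcript, 6 of the 9 members could be. Between G325E and WT, 3 of the 6 were lower in G325E (EIF4B, EIF4G1 and EIF4G2), where 15.1% of all such genes were, and 1 was higher (EIF4G3), where 25.1% were. Between G325E and vector, 5 of the 6 were lower (EIF4A3, EIF4B, EIF4G1, EIF4G2 and EIF4H) against a background of 21.1%, and 0 were higher against 16.7%. Between WT and vector, 1 was lower (EIF4G3, background 16.6%) and 0 were higher (background 8.78%). By location EIF4A1 joined the genes lower in G325E, which made 4 of 7 against WT (background 15.7%) and 6 of 7 against vector (background 20.7%), with 1 of 7 (25.1%) and 0 of 7 (16.4%) higher. The comparisons share lists with each other, so they are not independent of one another. These backgrounds include genes with too few peaks to be called lower when G325E is at 0, for which 8 WT or 5 vector peaks are needed. Among genes with that many, by annotated transcript, 3 of 4 members were lower than WT where 39.5% of 897 genes were, and 5 of 6 were lower than vector where 42.7% of 1002 were. By location it was 4 of 5 members against 39.4% and 6 of 7 against 41.9%. This narrower background was added after the values were seen. Genes enter it by their peaks in WT or vector, which favours a lower call in G325E for members and other genes alike.

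EIF4A1 (GRCh37, chromosome 17, 7476143 to 7482324, plus strand, 11 exons, 406 codons), the main initiation helicase, carried 21 peaks in vector, 27 in WT and 0 in G325E by location, of which the annotated transcripts named EIF4A1 for 2, 1 and 0. Vector and WT were both far from the 0 of G325E. The share was at least 7.08-fold lower in G325E than in WT and at least 9.78-fold lower than in vector, with 3 peaks as the floor, and in WT it was 0.724 of that in vector (0.394 to 1.35). Coding peaks began at codon 3 in both lists, over the start codon, and ran to codons 395 and 396. Vector had 2 peaks before the transcription start and 3 in the 3′ UTR, and WT had 1 and 2. Peaks covered 34.6% of the coding sequence in vector and 61.3% in WT. Exons 5 and 6 held 5 peaks in WT, from codon 146 to codon 198, and 0 in vector. The numbering of the vector and WT lists skips 0 entries within the gene.

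EIF4A2 (chromosome 3, 186501366 to 186507686, plus strand), the second initiation helicase, had 3 peaks in vector, 3 in WT and 0 in G325E by location and 0 in every list by annotated transcript. This is at the floor of 3 peaks, so a lower share in G325E was not detectable. EIF4A1 and EIF4A2 share at most 20 identical bases in a row in their canonical transcripts, and 0 stretches of 30, the size of a protected fragment, are the same in both.

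EIF4A3 (chromosome 17, 78108168 to 78120927, minus strand, 12 exons, 411 codons), the exon junction helicase, had 8 peaks in vector, 11 in WT and 5 in G325E. The scaled ratio was 0.578 of WT (0.157 to 1.80) and 0.447 of vector (0.115 to 1.55), and both intervals include 1. Peaks around the transcription start were in all 3 lists, and peaks beyond exon 1 were in vector and WT only. In G325E 3 peaks were in exon 1, whose GC content is 68.2%, and 2 lay before the transcription start, while 0 lay beyond. Vector had 3 in exon 1 and 3 before the start, and WT had 2 and 3. All 5 G325E peaks overlapped a peak of vector and a peak of WT. Vector had 2 peaks in exon 2, at codons 67 and 80. WT had 1 there, at codon 70, and 3 more in exons 8 and 9, from codon 281 to codon 316. The GC content at those 3 was 51.6% to 58.1%. The longest G325E peak, of 238 bases, ran from before the transcription start across the leader and the start codon. Vector and WT each listed a peak over the start codon that reached into the end of the leader. The numbering skips 1 entry in vector and 1 in WT at that stretch, and 1 more in WT further on. Whether those lists held a further peak in the leader cannot be told. Of the peaks on EIF4A3, 3 in WT and 1 in G325E were on the opposite strand.

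Both partners of the helicase, EIF4B and EIF4H, were called lower in G325E than in vector, and EIF4B was also called lower than in WT. EIF4B (chromosome 12, 53400240 to 53435999, plus strand, 611 codons), the larger of the helicase's activators, had 7 peaks in vector, 9 in WT and 0 in G325E. G325E was at least 2.36-fold below WT and at least 3.26-fold below vector. Vector and WT each had a peak over the start codon in exon 1 and one at codon 10 in exon 2, and WT had 4 further peaks in exons 9 and 10, from codon 334 to codon 422, where vector had 0. EIF4H (chromosome 7, 73588686 to 73611426, plus strand, 248 codons), the smaller activator, had 6 peaks in vector, 7 in WT and 3 in G325E, or 5.35, 3.51 and 1.91 per 10000. The ratio of G325E to WT was 0.544 (0.0909 to 2.39) and to vector 0.358 (0.0579 to 1.68), so counting error spans no difference. All 3 G325E peaks lay in exon 6, each over a WT peak, and exon 7, with 4 peaks in vector and 4 in WT, had 0.

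EIF4E (chromosome 4, 99800427 to 99850284, minus strand), the cap-binding protein, had 1 peak in vector, of 62 bases at codon 17 in exon 2, and 0 in WT and G325E. No ratio was computed, as every list was under the floor.

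**Figure D2:**
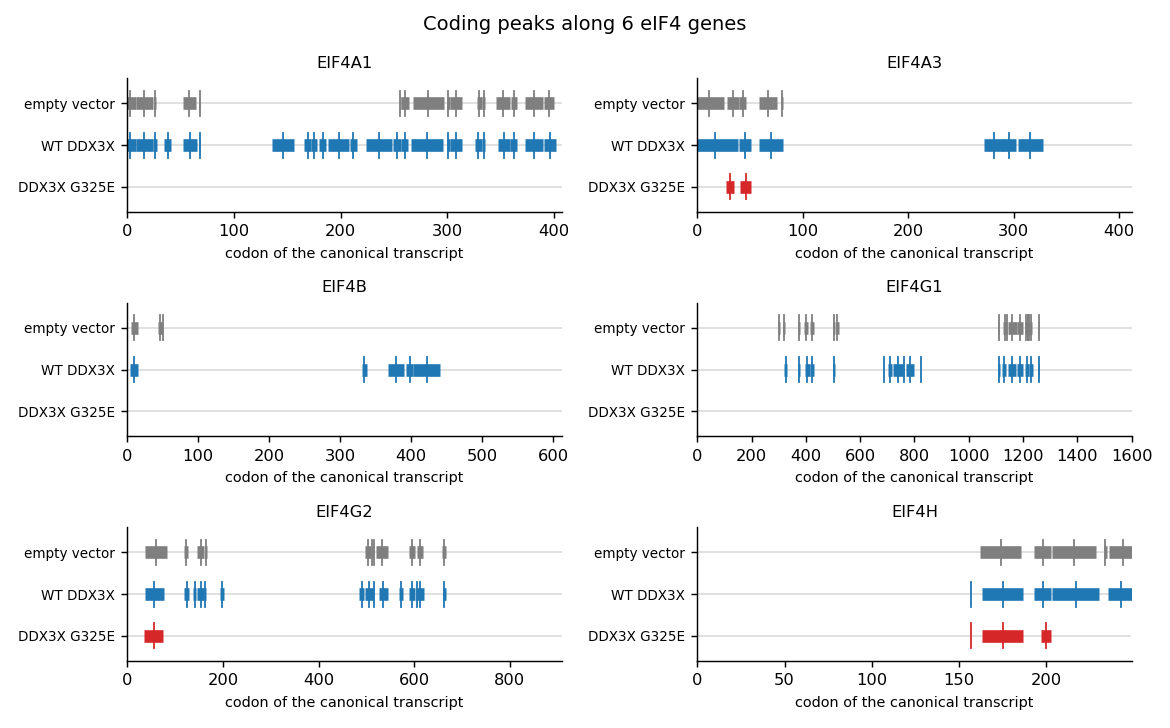
Coding peaks along 6 eIF4 genes, with the codon of the canonical transcript on the horizontal axis and 1 line per list. Each block is drawn at a peak's midpoint to its length and the thin tick marks the midpoint. G325E has 0 coding peaks on EIF4A1, EIF4B and EIF4G1 and 1 on EIF4G2, and the middle stretches of EIF4A1, EIF4B and EIF4G1 are occupied in WT and empty in vector.

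Among the scaffolds, EIF4G1 (chromosome 3, 184032394 to 184053141, plus strand, 33 exons, 1599 codons) carried 18 peaks in vector, 20 in WT and 0 in G325E, or 16.04 and 10.04 per 10000 against 0. G325E was at least 5.25-fold below WT and at least 8.39-fold below vector, and WT was at 0.626 of vector (0.314 to 1.25). Every vector peak lay in coding sequence, from codon 302 to codon 1258. The peaks fell into groups in exons 10 and 11 and in exons 23 to 25 in both lists, apart from exon 11, where only vector had a peak, and 15 of the 18 vector peaks overlapped a WT peak. Exons 14 to 16 held 6 WT peaks, from codon 687 to codon 824, and 0 vector peaks. The 5′ leader and the start codon had 0 listed peaks in all 3 lists, but the vector numbering skips 2 entries between the last peak before the gene and its first peak in exon 10, and vector and WT each skip 1 more within exon 10. In exons 23 to 25 several peaks at the same place were given opposite strands in vector and WT, and 7 vector peaks and 2 WT peaks on the gene were labelled minus.

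EIF4G2 (chromosome 11, 10818601 to 10830473, minus strand, 22 exons, 907 codons) had 11 peaks in vector, 15 in WT and 1 in G325E by location, and 6, 8 and 1 by annotated transcript. By location G325E stood at 0.0847 of WT (0.00201 to 0.551) and 0.0651 of vector (0.00151 to 0.448). By annotated transcript the ratios were 0.159 (0.00358 to 1.18) and 0.119 (0.00259 to 0.983), the first of which includes 1. The single G325E peak, 115 bases in exon 4 around codon 55, lay over the longest peak of vector (140 bases) and of WT (123 bases). All peaks were in coding sequence, and those of vector and WT ran on to codon 663 through the same exons, 6, 7, 15, 16, 17 and 18, with 1 WT peak more in exon 8.

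EIF4G3 (chromosome 1, 21132972 to 21503390, minus strand, 37 exons, 1641 codons) was the exception. It had 9 peaks in vector, 7 in WT and 13 in G325E, or 8.02, 3.51 and 8.29 per 10000, with WT lowest. G325E stood at 2.36 times WT (0.875 to 6.98) and 1.03 times vector (0.409 to 2.74), intervals that include 1. Of these 29 peaks 0 lay in coding sequence. All lay within 1149 bases after the transcription start or 183 before it, in the leader exons 1 and 2, the first introns and the stretch ahead of the start. In G325E 7 of the 13 peaks, between 298 and 566 bases after the start, overlapped no peak of the other lists, at GC contents of 48.4% to 93.6%. The numbering of the vector and of the WT list skips 6 entries each in the same place, between the peak 217 bases after the start and the one at 715 in vector or 696 in WT. Were all 6 peaks of EIF4G3, WT would have 13, as G325E does, and the ratio would be 1.27 (0.543 to 2.98), under the 2-fold limit. Vector would have 15, and the ratio of G325E to vector would be 0.620 (0.272 to 1.40) in place of 1.03.

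**Figure D3:**
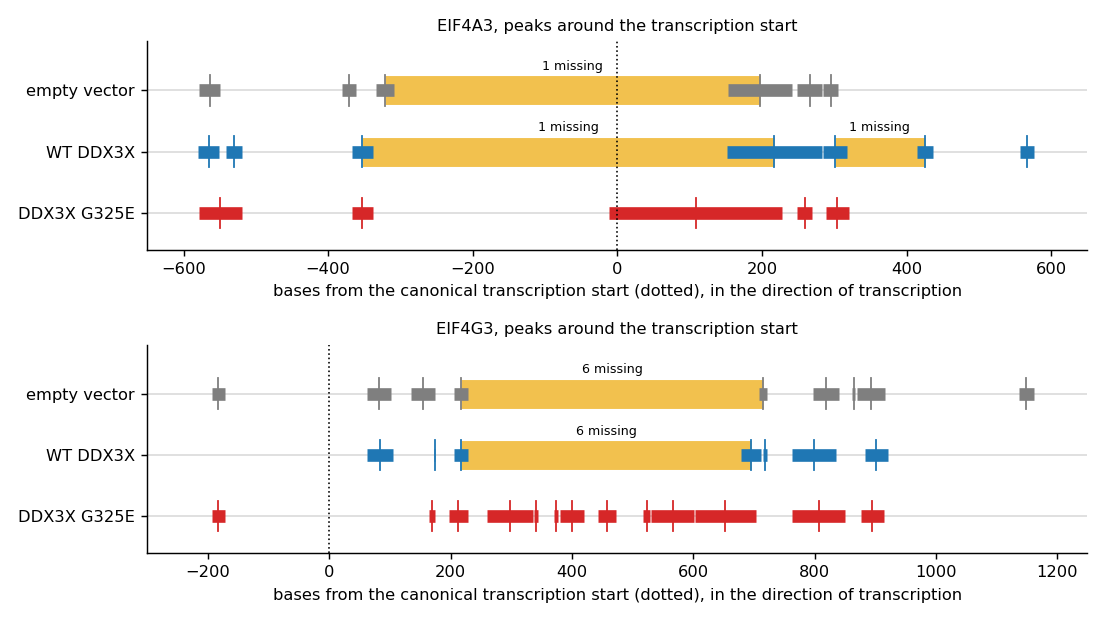
Peaks around the transcription start of EIF4A3 (top) and EIF4G3 (bottom), with bases from the canonical start on the horizontal axis and 1 line per list. Blocks are peaks drawn to length, and yellow bars span the midpoints of neighbouring peaks between which the list's numbering skips entries, with their number. The 7 G325E peaks of EIF4G3 that overlap no other list fall where vector and WT each skip 6 entries.

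EIF4A3 and EIF4G3 gave 18 of the 22 member peaks in G325E, and only 6 of the 22 were coding. Among peaks on canonical exons, exon 1 held 10.0% in vector (7 of 70, 95% Wilson interval 4.93 to 19.2), 5.95% in WT (5 of 84, 2.57 to 13.2) and 40.0% in G325E (4 of 10, 16.8 to 68.7). The same shares over all other genes were 31.3%, 28.4% and 56.9%. Exon 1 thus held a larger share in G325E both on the members and elsewhere, and the members' shares in vector and WT lay below those of other genes. On the members the number of exon 1 peaks did not rise, at 7, 5 and 4 in vector, WT and G325E. The G325E interval overlaps that of vector but not that of WT. The first 50% of the coding sequence held 26 of 62 coding peaks in vector (41.9%, 30.5 to 54.3), 31 of 76 in WT (40.8%, 30.4 to 52.0) and 3 of 6 in G325E (50%, 18.8 to 81.2). With 6 peaks, a difference was not detectable.

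Peaks promoter-proximal by HOMER's classes, promoter-TSS and 5′ UTR, made up 25% of member peaks in vector (15.2 to 38.2), 16.7% in WT (9.02 to 28.7) and 53.8% in G325E (7 of 13, 29.1 to 76.8), by annotated transcript and among peaks outside introns. By location the shares were 36.7%, 35.6% and 53.8%, since peaks on exons near a small nucleolar RNA carry its promoter class. Over all other genes they were 33.2%, 31.2% and 51.9%. In G325E the members and other genes were thus side by side.

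Member peaks of vector and WT lay largely in the same places. By location 81.0% of vector's 84 member peaks shared at least 1 base with a WT peak (71.3 to 87.9), and 64.6% of WT's 99 did with a vector peak (54.8 to 73.4). For all other peaks the shares were 76.8% and 41.5%. With G325E the overlap was 15.5% of vector's member peaks (9.27 to 24.7) and 14.1% of WT's (8.61 to 22.4), against 48.3% and 35.0% of all other peaks. By annotated transcript the overlap with G325E was 22.8% in vector (13.8 to 35.2) and 22.2% in WT (13.7 to 33.9). The intervals of the members lie below the shares for all other peaks by either count. In WT the interval reached the share of other peaks with EIF4G1 left out (32.6%, 20.5 to 47.5), with the listed gene names alone (35.5%, 21.1 to 53.1), with ids matched through the lists' own names (26.8%, 15.7 to 41.9) and with peaks of at least 20 bases (22%, 12.8 to 35.2). In vector it did so with EIF4G1 left out (33.3%, 20.6 to 49.0). In the other direction, 59.1% of the 22 G325E member peaks overlapped a vector peak (38.7 to 76.7) and 63.6% a WT peak (43.0 to 80.3), against 35.4% and 47.3% of all other G325E peaks. Together 15 of the 22 overlapped a peak of vector or WT, and the remaining 7 were those of EIF4G3.

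GC content was set beside these results. On the members the coding peaks of vector and WT had a median GC content of 51.6% in both lists, against 58.1% for the coding peaks of other genes, and in G325E the medians were 54.8% and 67.7%. WT coding peaks on the members had a median of 56.5% where a G325E peak lay over them (n = 6) and 51.6% where none did (n = 70). For other genes it was 64.5% (n = 4248) and 54.8% (n = 7938). The GC content of the coding sequence was 56.2% for EIF4G1, 50.4% for EIF4A1, 50.1% for EIF4B and 44.5% for EIF4G2, the genes called lower against WT, and 46.6% for EIF4G3, 50.7% for EIF4A3 and 53.4% for EIF4H. The coding values of the genes called lower thus spanned those of EIF4G3, EIF4A3 and EIF4H. Yet EIF4G3 had 0 coding peaks, and the G325E peaks of EIF4A3 lay in exon 1 or before the transcription start. Over all member peaks, coding or not, median GC content was 58.1% in vector, 54.8% in WT and 77.4% in G325E. For all peaks of other genes it was 64.5%, 64.5% and 74.2%. The part of GC content in the difference between lists was not tested, and with 1 library per construct the library and the construct cannot be told apart.

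**Figure D4:**
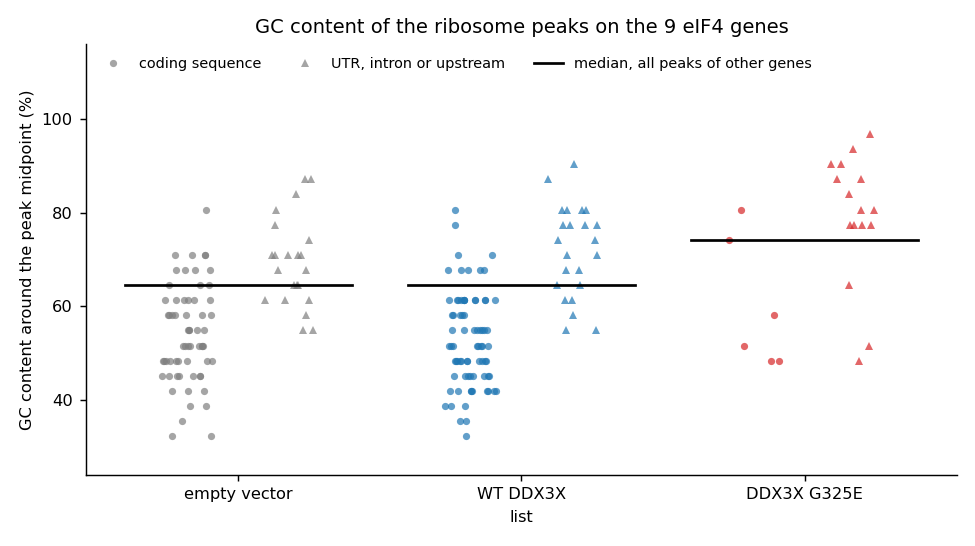
GC content of the 31 bases around the midpoint of each peak on the 9 genes (vertical axis) by list (horizontal axis), coding peaks as circles and all others as triangles. Black lines are the medians over all peaks of other genes, 64.5%, 64.5% and 74.2%, and with the members included the WT median is 1 base of 31 lower, at 61.3%. The coding peaks of the members lie mostly under that line in vector and WT, and 6 coding peaks remain in G325E. The line takes in peaks of every class. Coding peaks of other genes alone had a median of 58.1% in vector and in WT, also under it.

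Other genes also had peaks in WT and 0 in G325E. Of 1626 genes with at least 5 WT peaks by location, 30.5% had 0 in G325E. In 4 classes of rising coding GC content the share was 39.8%, 34.2%, 27.1% and 21.0%. EIF4A1 and EIF4B lay in the second class and EIF4G1 in the third. Of 762 genes with at least 9 WT peaks, the number of EIF4B, 180 had 0 in G325E (23.6%). Of 102 with at least 20, the number of EIF4G1, 11 had 0 (10.8%), EIF4A1 and EIF4G1 among them. The limits of 9 and 20 were chosen after the members' values were seen.

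Other gene lists of translation were counted beside the members, by location and as sums. The 13 eIF3 subunits, which form the complex that holds the small ribosomal subunit to eIF4G, had 59 peaks in vector, 108 in WT and 48 in G325E, with a scaled ratio of G325E to WT of 0.565 (0.393 to 0.800). The 13 elongation factors had 121, 165 and 117, with a ratio of 0.901 (0.705 to 1.15). The ratio of the 9 eIF4 genes, 0.282 (0.169 to 0.452), lay below both. By location its interval overlaps that of the eIF3 subunits but not that of the elongation factors. By annotated transcript the ratio of the members was 0.444 (0.260 to 0.731), and without EIF4G1 it was 0.65 (0.370 to 1.11). Both of these intervals overlap that of the elongation factors by location, so the separation depends on how the members are counted.

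A list of 22 related genes held cap-binding relatives, eIF4E-binding proteins, poly(A)-binding proteins and other initiation factors. By annotated transcript 5 of the 22 had peaks in vector, 11 in WT and 9 in G325E. Between G325E and WT, 3 of 9 that could be called were at least 2-fold higher (PAIP1, PDCD4 and LARP1; background 25.1%) and 2 were lower (EIF1 and the transfected DDX3X itself; background 15.1%). Between G325E and vector, 2 of 9 were higher (DDX3X and PAIP1; background 16.7%) and 0 lower (21.1%). Between WT and vector, 2 of 6 were higher (DDX3X and EIF1; background 8.78%) and 1 was lower (EIF4EBP1; 16.6%). PAIP1, PDCD4 and LARP1 are named after their values were seen. Apart from DDX3X, most peaks lay on PABPC1, the poly(A)-binding protein that eIF4G contacts, with 6 in vector, 8 in WT and 9 in G325E. EIF1, which guards start codon choice, had 0, 15 and 5. EIF4EBP1, the repressor that competes with eIF4G for eIF4E, had 7, 6 and 5. These 3 genes had peaks in G325E, whereas EIF2S2 (4, 5 and 0), EIF4EBP2 (0, 3 and 0) and EIF2S3 (0, 3 and 0), chosen after their values were seen, were among those with 0.

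By annotated transcript EIF4G1 and EIF4G3 had the most peaks, whereas by location EIF4A1 had more than either. Genes with a peak pattern like that of EIF4G1 and EIF4G3, by annotated transcript, were sought by the distance between log2(peaks per 10000 + 0.5) over the 3 lists. Nearest to EIF4G1 were HSP90AB1 (distance 0.25), with 16 peaks in vector, 23 in WT and 0 in G325E, HYOU1 (0.26), with 15, 19 and 0, and PELP1 (0.34), with 15, 17 and 0. Nearest to EIF4G3 were FKBP10 (0.11), with 9, 7 and 12 peaks, MFSD11 (0.18), with 10, 7 and 12, and HDGF (0.22), with 9, 6 and 12. Likeness over 3 libraries describes these lists alone.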

How the data were processed

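The authors aligned trimmed reads to hg19 with BWA 0.5.5 and, in each sample separately, called peaks where coverage reached 10, then HOMER annotated them. The deposited lists give positions and annotation but no score, height or count of reads. The study states a minimum peak length of 10 bases, yet 10.8% to 11.8% of listed peaks are shorter; these were kept, and 163, 272 and 236 peaks of no length (vector, WT, G325E) were taken as 1 base.

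Each peak went to the gene of the RefSeq id in its annotation (99.4% of 45926 ids matched in a RefSeq gene table), else to its listed gene name. Matching ids by this table is one reading of the rule; the lists' own names matched 81.1%. For location, midpoints were placed on canonical transcripts of GENCODE release 44 lifted to GRCh37, and peaks off every canonical exon kept the gene of their annotation. Shares carry 95% Wilson intervals, ratios exact conditional binomial intervals and single numbers exact Poisson intervals, with a floor of 3 peaks, or 2.67, 1.51 and 1.91 per 10000 in vector, WT and G325E. Backgrounds were limited to genes that could be called, not to all genes with a peak as first planned.

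Members, lists and tests were chosen with earlier results of these data known. Named genes were all 9 members, of the related list the 4 genes with the most peaks (DDX3X is 1 of them), and the 3 genes nearest in pattern to each of the 2 members with the most peaks by annotated transcript. Outside this rule, PAIP1, PDCD4, LARP1, EIF2S2, EIF4EBP2 and EIF2S3 of the related list were named after their values were seen. Computation used Python 3.11.15, numpy 2.4.6, pandas 2.3.3, scipy 1.17.1 and matplotlib 3.10.9, and the counting and ratio steps were tested on simulated data.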

Additional observations from a re-analysis of the deposited data

How the results depend on the processing

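Of 204 values recomputed under 16 alternatives, 168 stayed within the counting error of the main value, or within 1.5 times for a count of genes, and 36 moved beyond it. The location counts and the lists' own names were added after seeing the data. No paired analysis was possible because each construct had 1 library, which also leaves none to leave out.

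Gene Name alone gave 35.6 member peaks per 10000 in vector and 15.6 in WT, a G325E to WT ratio of 0.779 (0.416 to 1.42), 0 members lower and 1 higher in G325E than WT, 4 lower in WT than vector, upstream shares of 43.8% in vector and 39.1% in WT, and shares in the first 50% of coding sequence of 100% in vector and G325E and 78.6% in WT. The lists' own names gave 35.6 per 10000 in vector and 20.6 in WT, a G325E to WT ratio of 0.589 (0.323 to 1.04), 2 members lower in WT than vector, and first-50% shares of 90.9%, 62.5% and 100% in vector, WT and G325E. Location gave 74.9 in vector, 49.7 in WT and an upstream share of 35.6% in WT. Both name-based assignments left EIF4G1 with 7 peaks in vector and 5 in WT.

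With peaks of at least 20 bases, 3 members were lower in G325E than vector and 2 lower in WT than vector. Merging peaks under 10 bases apart, or taking mRNA classes as the total, left 0 members higher in G325E than WT. Scaling by the median per-gene ratio gave 0 higher and 5 lower in G325E than WT, 0 lower in WT than vector, and a WT to vector ratio of 0.947. The 5′ UTR class alone gave upstream shares of 7.14% in vector and 6.25% in WT, and canonical 5′ UTRs 9.30% and 8.33%. Without EIF4G1, the member with the most peaks by annotated transcript, there were 34.8 per 10000 in vector and 21.6 in WT, 38.2% upstream in vector and a G325E to WT ratio of 0.65 (0.370 to 1.11). The interval of the G325E to WT ratio thus included 1 with Gene Name alone, with the lists' own names and without EIF4G1. The interval of the WT to vector ratio included 1 with peaks of at least 20 bases (0.707, 0.457 to 1.10). It also did so with merging (0.675, 0.450 to 1.02) and with scaling by the median per-gene ratio (0.947, 0.65 to 1.38). A gene with 3 or fewer peaks in each list cannot show a difference.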
